A study of Mus musculus with 8 samples.

Results

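St3gal6, St6galnac6 and Selp encode 2 sialyltransferases and P-selectin. These 3 genes were taken by symbol from the authors' table of changed probesets, which names 482 genes on arrays of 23332 probesets. They were thus selected on the difference between CD38high and CD38low cells in these same 8 arrays, and the size and direction of that difference are given below as a description, without a test. Expression was measured on Affymetrix GeneChip arrays in spleen cells carrying CD11b and Gr1, the surface phenotype of mouse myeloid-derived suppressor cells, sorted by flow cytometry into a CD38high and a CD38low fraction. Both fractions came from L2-Cre;p120f/f mice, aged 12 months and on a mixed C57BL/6x129 background, which bear esophageal tumors and combine an L2-Cre transgene with a floxed gene for p120 catenin, a partner of cadherins. Mice without tumors were not analysed here, so all groups share the genotype, the age and the tumor. Each fraction was represented by mouse 1, mouse 2, mouse 3 and a pool of splenocytes from 3 mice that were combined before sorting, and the labels do not say whether the pooled mice were others than mice 1 to 3.

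Sialyltransferases are enzymes of the Golgi apparatus that move sialic acid from its activated donor, CMP-sialic acid, onto the ends of glycans on proteins and lipids. ST3GAL enzymes attach it to galactose, and the capped galactose is part of sialyl Lewis x, the glycan that selectins recognise on leukocytes. ST6GALNAC enzymes attach it to N-acetylgalactosamine. P-selectin is an adhesion receptor best known from platelets and activated endothelium, where it is stored in granules, moves to the surface on activation and binds the ligand PSGL-1 on myeloid cells.

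Across all probesets the array medians lay between 6.92 and 7.10 on the log2 scale, and the number of arrays limits the precision. The transcript of Cd38, the sort antigen, was at 12.25 to 12.60 in the CD38high arrays and at 9.63 to 10.90 in the CD38low arrays, so the labels follow the sort. Itgam, which encodes CD11b, and Ly6g and Ly6c2, whose products Gr1 antibodies can bind, have no named row and were not analysed here. In these sorted populations a larger share of cells with a transcript and more transcript per cell cannot be told apart.

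St3gal6 had the largest difference of the 3 genes. It encodes a sialyltransferase that caps galactose through an alpha-2,3 linkage and that takes part in making selectin ligands on mouse leukocytes. Its probeset 6846497 (chromosome 16) read 9.37 in CD38high cells of mouse 1, 10.11 in mouse 2, 9.10 in mouse 3 and 9.11 in the pool. In CD38low cells it read 6.86, 6.78, 6.62 and 8.02 in the same order. All 4 CD38high arrays lay above all 4 CD38low arrays, with 1.08 log2 units between the nearest values, those of mouse 3 in the high fraction and of the pool in the low fraction. The share of all probesets without such overlap was not computed. This gene and those below were selected on this contrast, so nothing is read from their separation. The group means were 9.42 ± 0.48 and 7.07 ± 0.64 (SD, n = 4 each), a log2 difference of 2.35 ± 0.93 (SD of the 4 pair differences) or 5.10-fold. Of the 124 probesets that the authors' deposited table lists as higher in CD38high cells, it ranked 6 by size of difference.

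Selp differed less in size and was the most even of the 3 across the mice. Its probeset 6754690 (chromosome 1) read 8.57, 8.75, 8.38 and 8.67 in CD38high cells of mouse 1, mouse 2, mouse 3 and the pool. The CD38low values were 7.05, 7.65, 7.13 and 7.45. The fractions did not overlap, and the gap between the lowest CD38high and the highest CD38low value was 0.73. With means of 8.59 ± 0.16 and 7.32 ± 0.28 (SD, n = 4 each), the log2 difference was 1.28 ± 0.18 (SD of the 4 pair differences), or 2.42-fold. Selp ranked 64 of the 124 higher probesets, close to their median difference of 1.28.

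St6galnac6 went the other way. It encodes a sialyltransferase that makes an alpha-2,6 linkage to N-acetylgalactosamine and is known mainly for its action on glycolipids (gangliosides). Its probeset 6876210 (chromosome 2) read 6.95, 7.26, 6.95 and 7.11 in CD38high cells of mouse 1, mouse 2, mouse 3 and the pool, against 8.53, 7.95, 8.20 and 7.74 in CD38low cells. Every CD38high array was below every CD38low array, by at least 0.47. The means were 7.07 ± 0.15 and 8.10 ± 0.34 (SD, n = 4 each), a log2 difference of -1.04 ± 0.46 (SD of the 4 pair differences), which is 2.05-fold lower in CD38high cells. St6galnac6 stood just inside the 2-fold limit that the series design names. Of the 374 probesets listed as lower, 36 had a smaller difference than it.

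**Figure D1:**
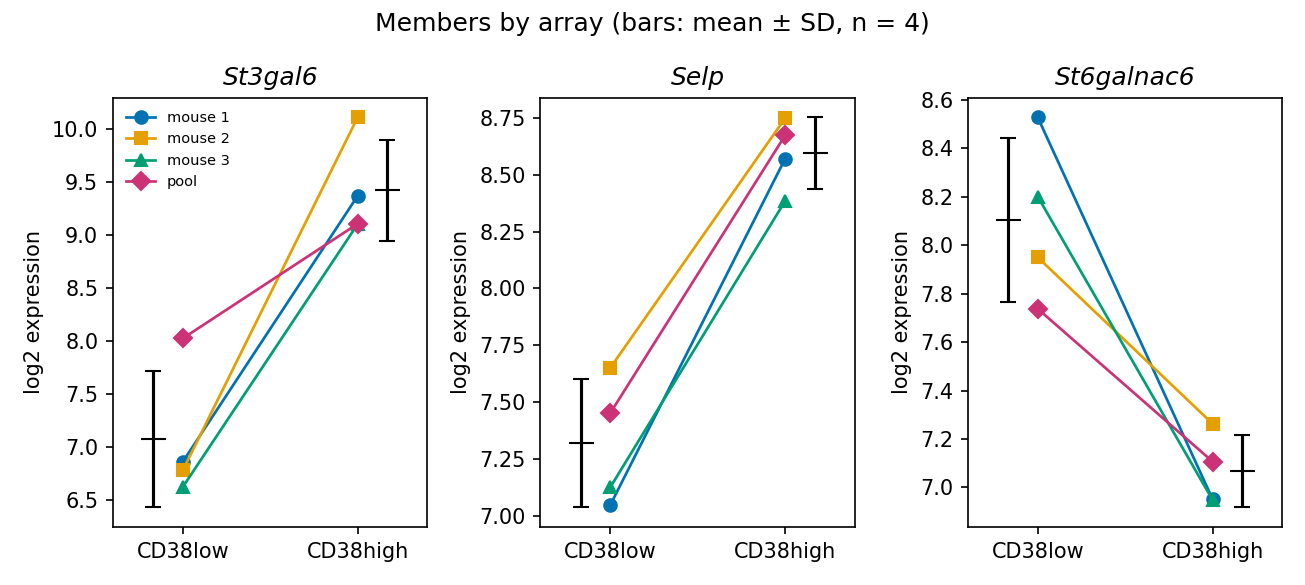
Log2 expression of St3gal6, Selp and St6galnac6 (each panel with its own y axis) in the CD38low and CD38high arrays of mouse 1, mouse 2, mouse 3 and the pool, with a line joining the 2 fractions of a mouse or the pool and black bars for mean ± SD (n = 4). St3gal6 and Selp are higher and St6galnac6 is lower in CD38high along all 4 lines, and the CD38low pool lies above the other CD38low arrays for St3gal6 (8.02).

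All 3 genes were called in the comparison of all 23332 probesets (limma, adjusted p under 0.05), St3gal6 and Selp as higher and St6galnac6 as lower. In that fit 3.74% of all probesets were called higher and 6.88% lower in CD38high cells. In the paired fit, where mouse or pool entered as a block, the 3 genes were again called, beside 6.97% of all probesets higher and 9.87% lower. Since the genes come from a table chosen on this contrast, nothing is read from these counts. Without both arrays of mouse 1 the unpaired call held for 1 of the 3 genes, Selp. Calls over all probesets then fell from 2479 to 540. Without both arrays of mouse 3 the unpaired call held for 2, with St6galnac6 lost, and calls over all probesets fell to 1334. In the paired fit St6galnac6 alone of the 3 lost its call, without mouse 3. Calls over all probesets were not counted for the paired fits with fewer arrays, so that loss has no background beside it.

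The differences within each mouse or pool were less alike than the shared direction. For St3gal6 they were 2.51 in mouse 1, 3.33 in mouse 2, 2.48 in mouse 3 and 1.08 in the pool, which as folds run from 2.12 in the pool to 10.1 in mouse 2. For Selp they were 1.52, 1.10, 1.26 and 1.22. For St6galnac6 they were -1.58, -0.69, -1.25 and -0.63. Mouse 2 thus had the largest pair difference for St3gal6 and the smallest for Selp, and the pool had the smallest for both sialyltransferases.

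**Figure D2:**
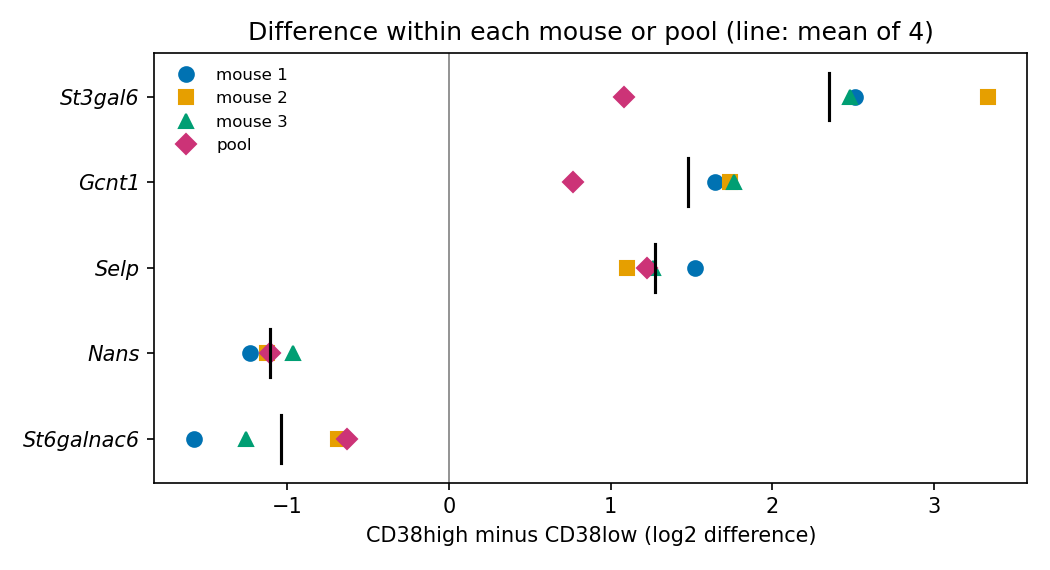
CD38high minus CD38low log2 difference within mouse 1, mouse 2, mouse 3 and the pool for St3gal6, Gcnt1, Selp, Nans and St6galnac6, with a black line at the mean of the 4. The pool is the lowest point for St3gal6 (1.08) and Gcnt1 (0.77), whereas the 4 points of Selp lie between 1.10 and 1.52.

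The small pair difference of St3gal6 in the pool came with a high CD38low value. At 8.02 the CD38low pool was above the 6.62 to 6.86 of the 3 mice, while the CD38high pool (9.11) lay beside mouse 3 (9.10). For St6galnac6 the CD38low pool was the lowest array of its fraction (7.74), which again places it nearest to the CD38high arrays. The Cd38 transcript in that array did not lie nearer to the CD38high arrays: it was the lowest of all 8 at 9.63. Many listed probesets had the CD38low pool in this position. Among the 124 listed as higher, the CD38low pool was the CD38low array nearest to the CD38high side in 80 of 124 (64.5%), and the pool had the smallest pair difference in 78 (62.9%). Among the 374 listed as lower, the corresponding count for the CD38low pool was 187, and the smallest pair difference was that of the pool in 135 (36.1%), of mouse 3 in 123 (32.9%) and of mouse 2 in 104 (27.8%). The cause was not tested.

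The SD of St3gal6 exceeded that of 89.5% of all probesets in CD38high cells and of 92.3% in CD38low cells. For Selp these shares were 46.6% and 71.3%, and for St6galnac6 44.2% and 78.3%. The high spread of St3gal6 rested on 1 array in each fraction. Without mouse 2 its SD in CD38high cells was 0.15 (n = 3), above that of 52.1% of probesets, and without the pool its SD in CD38low cells was 0.12 (n = 3), above that of 28.4%. The array left out was the most extreme of St3gal6 but not of every other probeset, so part of the fall in these shares is built in.

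Of 76 genes on lists for sialic acid and selectin biology, 5 could be named in the authors' table, which names 2.07% of all probesets. Each of the 5 was selected there as changed, and St3gal6, St6galnac6 and Selp are among them. The lists were chosen with earlier results of these data known, so the count is no result about the pathway. On the list of 20 sialyltransferases, St3gal6 was higher and St6galnac6 was lower. Of 13 genes for the supply and removal of sialic acid, Nans, the synthase that forms sialic acid 9-phosphate, was the 1 named gene and was lower. Of 12 selectins and carriers of their ligands, Selp was the 1 named gene. Of 19 enzymes that build selectin ligand glycans, Gcnt1 was the 1 named gene and was higher. No gene was named from the list of 12 sialic acid receptors. The other 71 listed genes, among them the PSGL-1 gene Selplg and the fucosyltransferase genes Fut4 and Fut7, have no named row and were not analysed here, so their change is not known.

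Gcnt1 encodes the enzyme that starts the core 2 branch of O-glycans, the branch on which PSGL-1 carries sialyl Lewis x. It read 9.88, 10.28, 9.75 and 9.87 in CD38high cells of mouse 1, mouse 2, mouse 3 and the pool, and 8.24, 8.55, 7.99 and 9.11 in CD38low cells. The fractions did not overlap, and the CD38low pool was again the highest array of its fraction. The log2 difference was 1.48 ± 0.48 (SD of the 4 pair differences), or 2.79-fold, and it was smallest in the pool (0.77).

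Nans read 8.60, 8.57, 9.21 and 8.55 in CD38high cells and 9.83, 9.70, 10.18 and 9.66 in CD38low cells, in the same order. Mouse 3 was the highest in both fractions, and the fractions did not overlap. The log2 difference was -1.11 ± 0.11 (SD of the 4 pair differences), or 2.15-fold lower in CD38high cells.

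**Figure D3:**
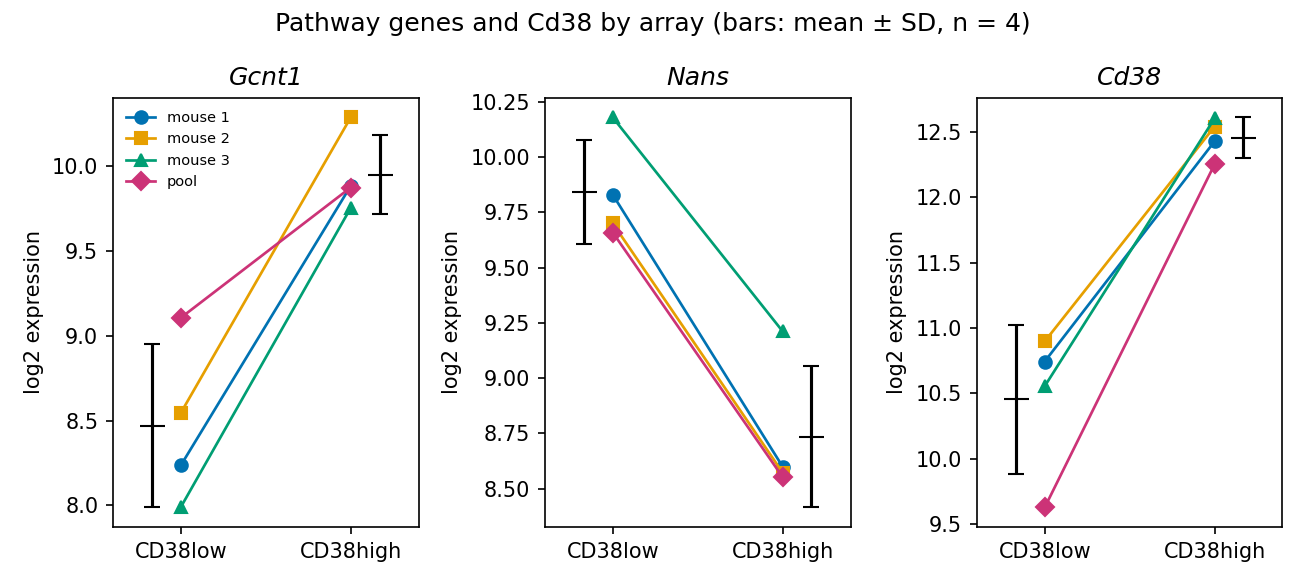
Log2 expression of Gcnt1, Nans and the sort antigen gene Cd38 by fraction (each panel with its own y axis), drawn as for the 3 genes above, with black bars for mean ± SD (n = 4). The CD38low pool is the highest CD38low array for Gcnt1 (9.11) and the lowest for Cd38 (9.63), and mouse 3 is the highest in both fractions for Nans.

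A further 3 glycosyltransferase genes of the authors' table lie outside these lists and were picked after their values were seen. Galnt6, which starts O-glycans by adding N-acetylgalactosamine to proteins, was 2.50-fold higher (8.95 ± 0.37 against 7.62 ± 0.37, SD, n = 4 each). Gcnt2, which makes the branches of the I antigen, was 2.46-fold higher (11.20 ± 0.21 against 9.90 ± 0.41, SD, n = 4 each). B4galt4, a galactosyltransferase, was 2.01-fold lower (6.97 ± 0.10 against 7.98 ± 0.20, SD, n = 4 each).

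Likeness to other genes was measured as the mean absolute gap between log2 values over the 8 arrays, among the 483 other named probesets. After each gene was centred on its mean over all 8 arrays, St3gal6 was nearest to Trim30b, a member of the TRIM family listed in the file as A530023O14Rik (gap 0.30), the endothelial lipase gene Lipg (0.30) and the metalloprotease gene Adam19 (0.34). Selp was nearest to the anthrax toxin receptor gene Antxr2 (0.11), the interleukin 1 receptor accessory gene Il1rap (0.12) and the p53 target Trp53inp1 (0.13). St6galnac6 was nearest to Pclaf, which encodes a factor that binds PCNA (0.10), the serine synthesis gene Psat1 (0.11) and Pinx1, which encodes an inhibitor of telomerase (0.13). These gaps largely follow the size of the difference between the fractions, on which all named genes were selected.

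Centring within each fraction removes that difference and leaves how the 4 arrays of a fraction vary. By this measure the named gene nearest to St3gal6 was Gcnt1 (gap 0.18, against a median gap of 0.45 over the named probesets), ahead of the sphingomyelin synthase gene Sgms1 (0.22) and Klhl2 (0.26). St3gal6 and Gcnt1 lay on the same side of the fraction mean in 7 of 8 arrays, the exception being the CD38low array of mouse 2. Unnamed probesets came closer still, since 8 other probesets of the whole array had a smaller gap to St3gal6 than Gcnt1 had. The highest St3gal6 deviations, 0.69 in the CD38high array of mouse 2 and 0.95 in the CD38low pool, were also the highest of Gcnt1 in each fraction, at 0.34 and 0.64. The high CD38low pool is not particular to this pair. It was the highest CD38low array in 80 of the 124 probesets listed as higher, and also for Sgms1 (0.36) and Klhl2 (0.49).

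The gap of Gcnt1 to Selp was of similar size (0.185, on the same side of the fraction mean in 7 of 8 arrays), but Selp varies less over the arrays. That gap exceeded the mean absolute deviation of Selp from its own fraction means (0.175), so it shows no likeness in size. For St3gal6 the corresponding deviation was 0.41, above its gap to Gcnt1. Among the neighbours of Selp, Gcnt1 ranked 67 of 483. Selp was nearest to the deiodinase gene Dio2 (0.05), Mfsd13a, listed as Tmem180 (0.09), and Adamtsl4 (0.10), of which Dio2 and Mfsd13a were lower in CD38high cells. Over the whole array 7, 121 and 252 other probesets came closer to Selp than these genes did. St6galnac6 was nearest to Hacd3, a fatty acid elongation gene listed as Ptplad1 (0.07), Dpy19l1 (0.09) and Pitrm1 (0.09), with 1, 14 and 19 other probesets closer than these. Between the 3 genes themselves, St3gal6 and Selp were on the same side of the fraction mean in 6 of 8 arrays, and St6galnac6 shared the side of each of the others in 4 of 8. As neighbours of St3gal6, Selp ranked 45 and St6galnac6 ranked 282 of the 483, and as a neighbour of Selp, St6galnac6 ranked 311. Nans, the other listed gene lower in CD38high cells, ranked 271 among the neighbours of St6galnac6. Its gap was 0.26, against a median gap of 0.25, and it shared the side of St6galnac6 in 4 of 8 arrays. Arrays of a mouse share their animal, so the 8 arrays are not 8 independent samples.

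**Figure D4:**
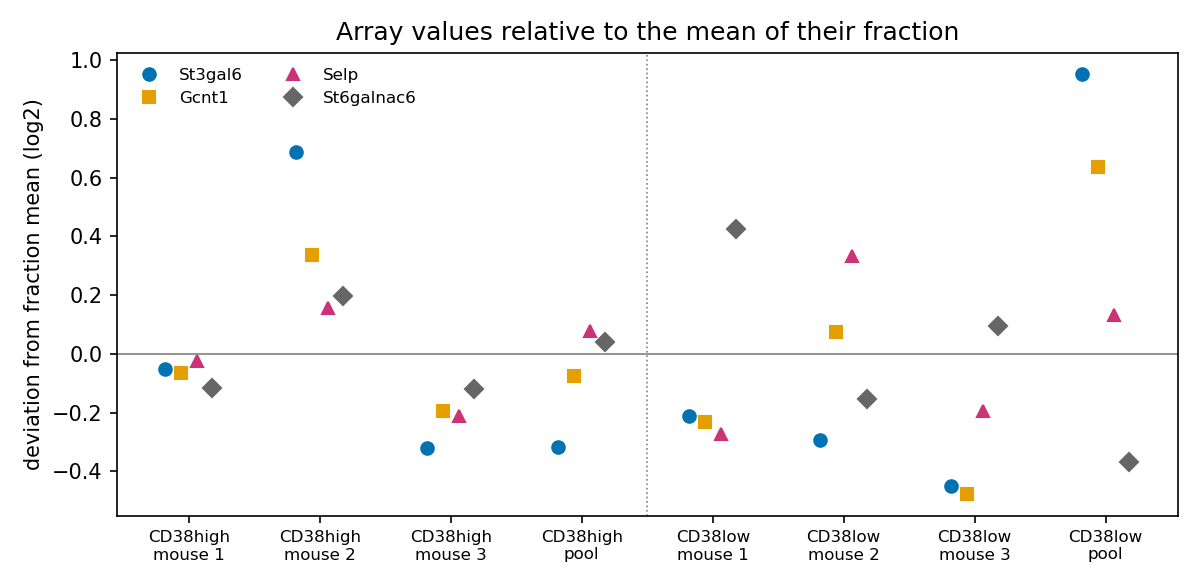
Deviation of each array from the mean of its fraction (log2) for St3gal6, Gcnt1, Selp and St6galnac6, with the CD38high arrays left of the dotted line and the CD38low arrays right of it. St3gal6 and Gcnt1 are both highest in CD38high cells of mouse 2 (0.69 and 0.34) and in the CD38low pool (0.95 and 0.64), where St6galnac6 is at -0.37.

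Selp is also a marker of platelets and endothelium. Of the 16 genes on the platelet and megakaryocyte list, 1 could be named, Selp itself, and of the 11 endothelial markers 0 could be named, so the other genes of these lists were not analysed here and their part in the Selp difference was not tested. Markers of other cells that could be named also differed between the same arrays. A marker has a name here only where the authors listed it as changed (124 probesets higher and 374 lower among 23332), so an unnamed marker is not shown to be unchanged and these counts carry no support. Of 16 neutrophil markers 5 could be named and 5 were higher in CD38high cells (Stfa3, Il1rn, Fpr1, Hdc and Clec4e, median log2 difference 1.19). This list was chosen with earlier results of these data known. Its other genes, among them S100a8, S100a9 and Csf3r, could not be named, so it gives no neutrophil result. Of 7 B cell markers Cd79a was named, and it was higher at 7.99 to 9.75 against 6.45 to 7.33. Of 10 T and NK cell markers Ccr7 was higher and Nkg7 lower, and of 8 monocyte and macrophage markers 0 could be named. From the erythroid list of 6 genes only Mt1 was named, and it was lower. Mt1 is a metallothionein gene that is not specific to erythroid cells, so nothing is read about those cells. The part of such cells in the values of St3gal6, Selp and St6galnac6 was not tested.

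The start regions of the 3 genes are shown because 2 of the genes were higher and 1 was lower in the same cells. The windows run from 250 bases before to 50 bases after each annotated start, are credited to RefSeq (build GRCm38.p6), and read 5′ to 3′ on the strand of the gene. St3gal6 has 2 windows on the minus strand of chromosome 16, at chr16:58524204-58524503 and chr16:58523377-58523676, and the table does not say which start the arrayed transcript uses. The St6galnac6 window is chr2:32599459-32599758 and the Selp window is chr1:164115014-164115313, both on the plus strand. Capitals mark matches to any of 9 motifs searched on both strands.
St3gal6 upstream window: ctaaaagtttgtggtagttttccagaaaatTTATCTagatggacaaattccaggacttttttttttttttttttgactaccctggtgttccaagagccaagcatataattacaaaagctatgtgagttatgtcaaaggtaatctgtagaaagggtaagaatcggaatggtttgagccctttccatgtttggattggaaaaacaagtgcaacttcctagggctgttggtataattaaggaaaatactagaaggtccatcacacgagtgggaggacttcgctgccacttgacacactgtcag
St3gal6 downstream window: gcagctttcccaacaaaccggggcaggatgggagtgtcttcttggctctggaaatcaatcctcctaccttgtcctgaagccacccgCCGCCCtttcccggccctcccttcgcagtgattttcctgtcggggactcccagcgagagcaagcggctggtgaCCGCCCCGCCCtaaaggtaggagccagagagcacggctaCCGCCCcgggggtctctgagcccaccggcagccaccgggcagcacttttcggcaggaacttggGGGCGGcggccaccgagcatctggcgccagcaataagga
Selp window: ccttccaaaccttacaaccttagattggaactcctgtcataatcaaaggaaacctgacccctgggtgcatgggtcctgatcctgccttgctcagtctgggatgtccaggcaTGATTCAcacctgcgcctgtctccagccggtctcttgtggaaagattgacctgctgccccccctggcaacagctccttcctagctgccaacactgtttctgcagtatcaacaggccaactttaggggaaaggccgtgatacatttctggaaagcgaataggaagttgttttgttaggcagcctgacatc
St6galnac6 window: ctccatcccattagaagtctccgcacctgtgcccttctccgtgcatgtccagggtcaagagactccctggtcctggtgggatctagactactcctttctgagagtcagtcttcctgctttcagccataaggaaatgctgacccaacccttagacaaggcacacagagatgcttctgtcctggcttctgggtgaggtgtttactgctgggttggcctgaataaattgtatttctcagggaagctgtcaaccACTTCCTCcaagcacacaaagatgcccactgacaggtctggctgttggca

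The motifs were ACCGGAAGT for ETS factors, GAGGAAGT for PU.1, TTGCNNAA for C/EBP, AGATAA for GATA factors, the GC box GGGCGG, the form TATAAA of the TATA box, TGANTCA for AP-1, the E box CACGTG and the site GGACTTTCC for NF-kB. Of them, ETS and PU.1 share the letters GGAAGT. The upstream window of St3gal6 held 1 match, to the motif of GATA factors on the opposite strand, which occurs in 11.2% of all 32851 windows. The downstream window held 5 GC boxes, a motif found in 35.7% of windows, and was richer in G and C (64.7%) than the upstream window (38.7%) and the median window (52.7%). The Selp window held 1 AP-1 motif, present in 7.81% of windows. The St6galnac6 window held 1 PU.1 motif on the opposite strand, beginning at the annotated start, and 3.20% of windows hold that motif. None of the 9 motifs matched in full in the windows of different genes. The shorter run AGGAAGT, which is part of the PU.1 motif, does occur in the Selp window. Its reverse complement ACTTCCT occurs in the upstream St3gal6 window and the St6galnac6 window. The share of all windows with this shorter run was not computed. A match is a run of letters only, and no measurement of binding was made.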

How the data were processed

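Total RNA of the sorted cells was amplified, converted to cDNA, labelled with biotin and hybridised to GeneChip arrays, per the labels' protocols. The deposited values are log2 expression, 1 value per probeset and array, normalized by the authors. The submitters' processing notes name Affymetrix Power Tools, RMA and PLIER and the build mm9, and which of RMA and PLIER gave the values is not given in the sources used here. Scan dates were not used, so batches could not be examined.

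Gene names came from the authors' table of 498 changed probesets, each equal to exactly 1 row of the value table in all 8 values (to 5 decimals), and 484 of them carry a symbol. Symbols were updated from RefSeq (GRCm38.p6), and 1 was kept. The 3 genes and all lists were chosen with earlier results of these data known. The text names these 3 genes, Cd38, list members found by name and, per gene, the 3 nearest named genes by each measure of likeness. Galnt6, Gcnt2 and B4galt4 were added after their values were seen.

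All 23332 probesets were fitted in R 4.3.3 with limma 3.58.1, by lmFit and then eBayes (two-sided, Benjamini-Hochberg over all, called under 0.05). The main fit has no block, because the series design names an unpaired test. Both fractions of a mouse share an animal, so a fit with the replicate block is the paired fit. The correlation of array deviations from their fraction mean was 0.345 to 0.675 within a mouse or pool and -0.577 to 0.1 otherwise. Centring within a fraction ties the deviations of its arrays to each other, so part of this contrast is built in. Both fits were tested on simulated arrays with known changes. Alternatives were the block, fewer arrays, other scaling, the median of the pair differences, a filter on dim probesets, trended robust eBayes and the methods' t-test without its permutations. The rest was computed in Python 3.11.15 (pandas 2.3.3, numpy 2.4.6) and plotted with matplotlib 3.10.9.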

Additional observations from a re-analysis of the deposited data

Results flagged for a closer look

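Among 72 groups of 4 arrays (the named genes and the array medians), 3 held an array whose gap to its nearest neighbour, over the range of the group, exceeded the critical value of Dixon's test, where chance gives about 3.6. St3gal6 in the CD38low pool was at 8.02, against 6.62 to 6.86 in the CD38low arrays of the mice. Nans in CD38high cells of mouse 3 was at 9.21, against 8.55 to 8.60 in the other CD38high arrays. The neutrophil marker Fpr1 stood apart in the CD38high array of mouse 3, at 13.54 where the others read 13.31 to 13.33.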

How the results depend on the processing

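The log2 differences of the 3 genes kept their direction under all 16 alternatives run for each gene. Each moved by less than the SD of its pair differences. The ranges were 2.02 to 2.77 for St3gal6, 1.19 to 1.39 for Selp and -1.17 to -0.86 for St6galnac6. Because the fractions did not overlap, leaving out arrays could not reverse a direction. With complete pairs the block could not change a difference. The kept direction is therefore no support for these genes, which were selected on this contrast. The replicate block raised the number of called probesets from 2479 to 3929, and of those higher from 873 to 1626, and ended no call of the 3 genes. The paired fits without a mouse or the pool, and the SDs without 1 array, were chosen after seeing the data. The methods' t-test gave 351 probesets (78 higher) at its own threshold of p under 0.001 and at least 2-fold, and 1598 (545 higher) after Benjamini-Hochberg. Leaving out a mouse or the pool gave 540 to 1901 called probesets and 113 to 680 higher, lowest without mouse 1 and also more than 1.5 times below the main counts without mouse 3 (1334 and 374) and without the pool (1125 and 373), with fewer arrays in each such fit. The cause of the other changes was not tested. Only 2.07% of probesets have a name here, which limits what can be said of the pathway, and no detection call was used for dim probesets.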
